A study of Homo sapiens with 6 samples.

Results

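The genes described here were the IL-6 family and colony-stimulating factor genes of LX-2 cells: the ligands IL6, LIF and IL11, the receptor chains IL6ST, LIFR and OSMR, the feedback inhibitor SOCS3, and the colony-stimulating factors CSF1, CSF2 and CSF3. They were taken by gene symbol and were 10 of 60605 genes with an Ensembl identifier in the count table. LX-2 is an immortalized human hepatic stellate cell line. The LX-2 cells of all 6 libraries received conditioned medium of HCT116 cells, a human colorectal carcinoma line, for 24 h. In the Vector-CM group (3 libraries) the HCT116 cells carried the empty lentiviral vector. In the FGFBP1-CM group (3 libraries) they stably overexpressed FGFBP1, a secreted protein that frees FGF2 from the extracellular matrix. Stable HCT116 clones were selected with puromycin, and the number of clones behind each medium is not given in the sources used here. The labels do not say whether the 3 libraries of a group were separate cultures, so the p-values measure only the spread between these libraries, which may be technical. The comparison asked how RNA levels of these genes differed between LX-2 cells in the 2 media.

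In this cytokine family most ligands signal through receptor complexes that hold IL6ST, the shared signal-transducing chain known as gp130. IL-6 and IL-11 signal through pairs of gp130, LIF through gp130 with LIFR, and oncostatin M through gp130 with OSMR or LIFR. The receptors switch on JAK kinases and above all STAT3, and SOCS3 is a STAT3 target that blocks gp130 in return. Activated stellate cells and fibroblasts are known sources of IL-6, LIF and IL-11 and of the colony-stimulating factors, which act mostly on monocytes and macrophages (CSF1), granulocytes and macrophages (CSF2) and neutrophils (CSF3).

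The messages of such cytokines are known for short lives set by AU-rich elements of the 3′ UTR. These elements are shown here for CSF2, IL6, CSF3, IL11, LIF and OSMR. CSF1, the ligand with the fewest ATTTA pentamers per kb (1.86), is not shown. Each window below holds 30 bases of the 3′ UTR with the largest number of ATTTA pentamers, with the pentamers in capitals (GRCh38, GENCODE 29, written 5′ to 3′ on the gene's strand). They lie at chr5:132076072-132076101 (+), chr7:22731697-22731726 (+), chr17:40016982-40017011 (+), chr19:55365941-55365970 (-), chr22:30240522-30240551 (-) and chr5:38935451-38935480 (+), in this order.
CSF2: ttttaaaatATTTATTTATTTATTTATTTA
IL6: ttttaattatttttaATTTAttaatATTTA
CSF3: tATTTAtctctATTTAatATTTAtgtctat
IL11: agatcttATTTATTTATTTAtttcagtact
LIF: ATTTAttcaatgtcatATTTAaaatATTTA
OSMR: ATTTATTTATTTAtgtacctttgttatgat
CSF2 had 5 overlapping pentamers in its window and 8 in a 3′ UTR of 318 bases. That is 25.2 pentamers per kb, above 99.9% of the 18906 annotated 3′ UTRs compared, whose median was 1.48 per kb. IL6 had 13.99 per kb (above 99.4%), CSF3 8.20 (97.5%) and IL11 5.56 (92.5%), whereas LIF had 2.18 (61.5%) and CSF1 1.86 (56.2%). The nonamer TTATTTATT stood in the 3′ UTR of 5 of the 10 genes, LIF, IL11, LIFR, OSMR and CSF2, against 8.003% of all those compared. This share takes no account of length. The 3′ UTRs of LIFR (6632 bases, 1 copy), LIF (3204, 2 copies), OSMR (2197, 2 copies) and IL11 (1618) were longer than the median of 983 bases. IL11 held 6 copies and CSF2 held 3, and 0.656% of 3′ UTRs held 3 or more. Among the receptor genes the pentamer density was 4.37 per kb for LIFR, 3.84 for IL6ST and 3.64 for OSMR, and for SOCS3 it was 2.44. A match is a count of letters and does not show that an element was in use in these cells.

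RefSeq promoter windows (GRCh38.p14, 250 bases before to 50 bases after the start) were matched for 7 of the 10 genes, IL6, IL11, IL6ST, LIFR, OSMR, SOCS3 and CSF2. They were searched on both strands for a STAT motif (TTCNNNGAA), an AP-1 motif (TGANTCA), a cAMP response element (TGACGTCA) and an NF-kB motif (GGG, any 2 bases, TTTCC). Among the 35116 promoters of that table, 7.66% held the STAT motif, 7.71% the AP-1 motif, 1.85% the cAMP response element and 1.91% the NF-kB motif. The windows of IL6 at chr7:22726950-22727249 (+), IL11 at chr19:55370414-55370713 (-) and CSF2 at chr5:132073539-132073838 (+) are shown because they are the ligand promoters of the table, with the matches in capitals.
IL6: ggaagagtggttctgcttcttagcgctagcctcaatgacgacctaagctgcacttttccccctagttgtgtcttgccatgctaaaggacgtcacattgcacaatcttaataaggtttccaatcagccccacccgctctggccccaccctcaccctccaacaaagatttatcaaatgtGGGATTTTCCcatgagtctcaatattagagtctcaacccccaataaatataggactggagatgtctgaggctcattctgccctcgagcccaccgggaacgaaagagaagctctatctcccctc
IL11: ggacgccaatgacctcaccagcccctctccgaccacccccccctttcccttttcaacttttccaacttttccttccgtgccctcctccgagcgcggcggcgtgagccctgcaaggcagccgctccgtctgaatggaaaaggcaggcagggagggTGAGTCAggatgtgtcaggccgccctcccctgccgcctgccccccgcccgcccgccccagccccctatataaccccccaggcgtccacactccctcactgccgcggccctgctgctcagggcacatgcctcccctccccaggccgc
CSF2: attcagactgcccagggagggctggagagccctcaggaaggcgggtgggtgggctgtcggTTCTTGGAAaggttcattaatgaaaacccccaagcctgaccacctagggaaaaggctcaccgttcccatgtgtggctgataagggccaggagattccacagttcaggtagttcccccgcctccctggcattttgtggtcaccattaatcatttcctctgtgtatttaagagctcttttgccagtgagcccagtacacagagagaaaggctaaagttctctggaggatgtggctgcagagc
IL6 held GGGATTTTCC, an NF-kB match, 73 bases before its start. IL11 held the AP-1 match TGAGTCA at 96 bases before, and CSF2 the STAT match TTCTTGGAA at 190 bases before. Of the receptors, LIFR held the STAT match TTCCTTGAA 165 bases before its start and OSMR the AP-1 match TGATTCA from 4 bases after it. None of the 4 motifs was found in the windows of IL6ST and SOCS3. The SOCS3 window, at chr17:78360876-78361175 (-), lies wholly upstream of the GENCODE 29 gene, whose 5′ end is at 78360077. The LIFR window, at chr5:38595356-38595655 (-), and the IL6 window lie inside the GENCODE 29 genes, whose 5′ ends are at 38608354 and 22725884. Their matches are placed by RefSeq starts within those genes. The bases next to the annotated 5′ ends of SOCS3, LIFR and IL6 were therefore not searched. This search of 300 bases per gene says nothing about sites outside the windows.

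All 10 genes were expressed above the count filter. The levels of different genes are compared here in FPKM, the deposited fragment value scaled by the authors to gene length and library size. OSMR, the oncostatin M receptor chain, had the highest mean level, 53.0 ± 2.29 FPKM (SD, n = 6 libraries). IL6ST followed at 51.5 ± 8.77 FPKM. Both were above 96% of the 16582 genes tested. The ranges of these receptor chains overlapped, and OSMR was the higher of the pair in 4 of 6 libraries.

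CSF1 came next with 18.9 ± 1.57 FPKM, below IL6ST and above SOCS3 in every library. SOCS3 (13.9 ± 1.29 FPKM), IL11 (12.1 ± 1.82), LIFR (11.9 ± 1.54) and CSF2 (11.2 ± 2.23) formed a run in which each range overlapped that of its neighbour. LIF (3.36 ± 0.355 FPKM) and IL6 (2.84 ± 0.628) were lower than CSF2 in every library and overlapped each other. CSF3 had the lowest level, 0.706 ± 0.282 FPKM, below IL6 in all 6 libraries. Thus IL11 was the most abundant of the IL-6 family ligands measured per length, and IL6 was the lowest of the 3 named here. By reads without regard to length (CPM, counts scaled to library size) IL6ST ranked first and OSMR second, LIFR moved up to the third place, and CSF2 fell behind LIF.

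**Figure D1:**
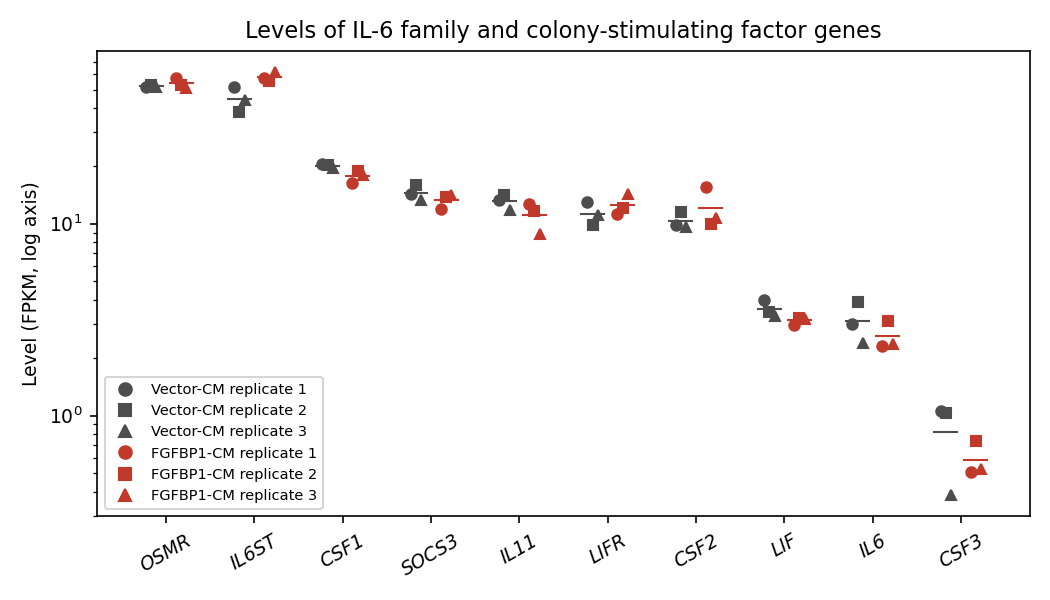
Level of each gene in FPKM (log axis) in the 6 libraries, ordered by the mean over all libraries. Points are single libraries, grey for Vector-CM and red for FGFBP1-CM with a symbol for each replicate, and short lines are group means. OSMR and IL6ST lie together at the top near 53.0 and 51.5 FPKM, CSF3 lies alone at the bottom at 0.706, and the groups overlap for most genes.

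The library totals ran from 13992930 to 18494548 counts, so that a count of 0 allowed at most 3 counts, or 0.158 to 0.217 CPM, for counting error only. FGFBP1-CM replicate 1 stood apart from the other libraries on the first principal component (37.8, against 4.77 and 4.97 for the other FGFBP1-CM libraries and -18.1 to -13.0 for Vector-CM). The labelled cell type was checked with 12 stellate and fibroblast markers, and all of them were tested. VIM, SPARC and COL1A1 were well expressed (457, 94.8 and 16.6 FPKM), whereas ACTA2, the actin of activated stellate cells, was at 1.496 FPKM and DCN and LUM were under 1 FPKM. None of the 12 passed the test, 11 had a log2 fold change below 0 with a median of -0.23, and their summed level was 3259 to 3499 CPM in Vector-CM and 2520.1 to 3056 CPM in FGFBP1-CM. Summed colorectal epithelial markers were at 215 to 240 CPM and 207 to 223 CPM, nearly all from KRT8 and KRT18, and EPCAM was at 0.219 FPKM. Summed hepatocyte markers were lower in FGFBP1-CM, 18.2 to 28.0 CPM against 41.0 to 43.9, and 4 of the 6 tested passed the test. Summed myeloid markers, which could carry CSF receptors, were at 5.00 to 6.09 CPM and 4.95 to 7.73 CPM, with TYROBP and CD163 at 0 in all libraries, and summed endothelial markers at 16.8 to 18.5 CPM and 15.8 to 19.0 CPM. The part of these differences in the results below was not tested. In bulk RNA, fewer cells of a type and less RNA per cell cannot be told apart.

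None of the 10 genes passed the test between the media. The test was edgeR's quasi-likelihood F-test on the counts, with Benjamini-Hochberg adjustment over all 16582 genes tested and a threshold of 0.05. It called 20 genes, which is 0.121% of those tested (0.0543% higher and 0.0663% lower in FGFBP1-CM). At an unadjusted p under 0.05 (edgeR) IL6ST was higher, and IL11 and CSF1 were lower. That is 1 and 2 of the 10, where 11.3% of all genes were higher and 10.6% lower by that rule, so the counts stood near the background. The log2 fold change was above 0 for 4 genes and below 0 for 6, with a median of -0.19 against 0.00 over all genes tested. For 9 of the 10 genes, all but CSF3, the 95% interval excluded a 2-fold change in either direction, and for 7 it held 0.

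**Figure D2:**
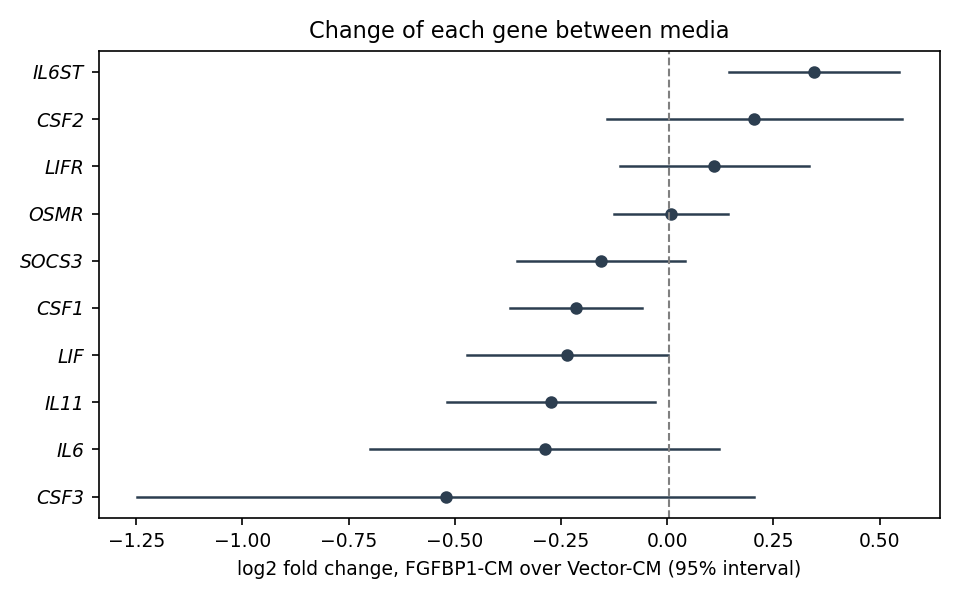
log2 fold change of each gene in FGFBP1-CM over Vector-CM (horizontal axis), with 95% intervals from edgeR over 3 libraries per group. The dashed line is the median of all tested genes, 0.00. IL6ST lies highest at 0.35 and CSF3 lowest at -0.52 with the widest interval, and 7 of the 10 intervals hold 0.

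The ligands IL6, LIF and IL11 had estimates below 0. IL6 (chr7:22725884-22732002, plus strand), the founding ligand and a driver of the acute-phase response, had 6.26, 8.19 and 5.05 CPM in the Vector-CM libraries and 4.64, 6.47 and 4.84 CPM in the FGFBP1-CM libraries. The groups overlapped, since FGFBP1-CM replicate 2 exceeded Vector-CM replicates 1 and 3. In edgeR the log2 fold change was -0.29, with SE 0.191, a 95% interval of -0.70 to 0.12 and adjusted p = 0.399. Leaving out single libraries moved it from -0.45 (without FGFBP1-CM replicate 2) to -0.10 (without Vector-CM replicate 2). These levels rested on 75 to 113 counts per library.

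LIF (chr22:30240447-30246851, minus strand), known for keeping mouse embryonic stem cells undifferentiated, was at 15.6, 13.7 and 13.0 CPM in Vector-CM and at 11.2, 12.6 and 12.3 CPM in FGFBP1-CM. Every FGFBP1-CM library lay below every Vector-CM library, although the lowest Vector-CM and highest FGFBP1-CM values were close. The difference was -0.23 on the log2 scale (SE 0.110, interval -0.47 to 0.00, edgeR adjusted p = 0.234), and -0.15 without Vector-CM replicate 1. Groups that did not overlap with FGFBP1-CM lower were found for 13.0% of all genes, and with FGFBP1-CM higher for 13.0%. Among the 10 genes this held for LIF and CSF1 in the first direction and for IL6ST in the second.

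IL11 (chr19:55364389-55370463, minus strand), a ligand with a known part in fibroblast activation and tissue fibrosis, was at 35.7, 38.5 and 32.5 CPM in Vector-CM. In FGFBP1-CM it was at 32.9, 31.4 and 23.7 CPM. The groups overlapped narrowly, and FGFBP1-CM replicate 3 was the lowest of the 6 libraries. IL11 had a log2 fold change of -0.27 (SE 0.113, interval -0.52 to -0.03), with an unadjusted p of 0.0307 and an adjusted p of 0.183 (edgeR). Without FGFBP1-CM replicate 3 it was -0.14 (edgeR unadjusted p = 0.158), and the unadjusted p also exceeded 0.05 without Vector-CM replicate 1 (0.0724) or 2 (0.113). The ratio of IL11 to LIF reads within a library was 2.29, 2.81 and 2.49 in Vector-CM and 2.93, 2.50 and 1.92 in FGFBP1-CM (p = 0.9, exact two-sided permutation test).

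Among the receptor chains, IL6ST (chr5:55935095-55994993, minus strand) showed the lowest p of the 10 genes. It was at 528, 394 and 457 CPM in Vector-CM and at 565, 565 and 624 CPM in FGFBP1-CM. All FGFBP1-CM libraries lay above all Vector-CM libraries, and the Vector-CM libraries were the more spread. Its log2 fold change was 0.35 (SE 0.0927, interval 0.15 to 0.55), or 1.27-fold (1.11 to 1.46). The unadjusted p was 0.00241 and the adjusted p 0.0807 (edgeR), so it missed the threshold. DESeq2 on the same counts put it past the threshold (adjusted p = 0.0145), where 5.33% of the 11438 genes with an adjusted p were called. So did edgeR without a filter on low counts (adjusted p = 4.63e-05), where 3.65% were called. In that unfiltered fit the prior df, the weight given to the spread shared over genes, was infinite, against 9.28 in the main fit.

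LIFR (chr5:38474963-38608354, minus strand), the partner chain for LIF, was at 158, 121 and 139 CPM in Vector-CM and at 133, 147 and 173 CPM in FGFBP1-CM. The groups overlapped throughout. LIFR differed by 0.11 on the log2 scale (interval -0.11 to 0.33, edgeR adjusted p = 0.561). OSMR (chr5:38845858-38945596, plus strand), which lies 237.504 kb from LIFR on the same chromosome arm, had the estimate closest to 0. It was at 374, 386 and 381 CPM in Vector-CM and at 402, 381 and 366 CPM in FGFBP1-CM. OSMR differed by 0.01 on the log2 scale (interval -0.12 to 0.14, edgeR adjusted p = 0.944), and its sign changed in 4 of the 16 alternative fits.

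Because gp130 pairs with LIFR or OSMR at the cell surface, the levels of the chains were set against each other within each library. The ratio of IL6ST to LIFR reads was 3.34, 3.25 and 3.29 in Vector-CM and 4.26, 3.85 and 3.61 in FGFBP1-CM. The Vector-CM ratios lay close together, and all FGFBP1-CM ratios lay above them. The difference was 0.24 on the log2 scale (p = 0.1, exact two-sided permutation test, the smallest p that 3 against 3 libraries allow). This and the other 4 ratios were chosen after values of these genes had been seen, and with Benjamini-Hochberg adjustment over the 5 ratios the p was 0.333. The ratio of IL6ST to OSMR was 1.41, 1.02 and 1.201 in Vector-CM and 1.41, 1.48 and 1.71 in FGFBP1-CM (p = 0.2, exact permutation test), and these groups overlapped. LIFR to OSMR overlapped as well (p = 0.6, exact permutation test).

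**Figure D3:**
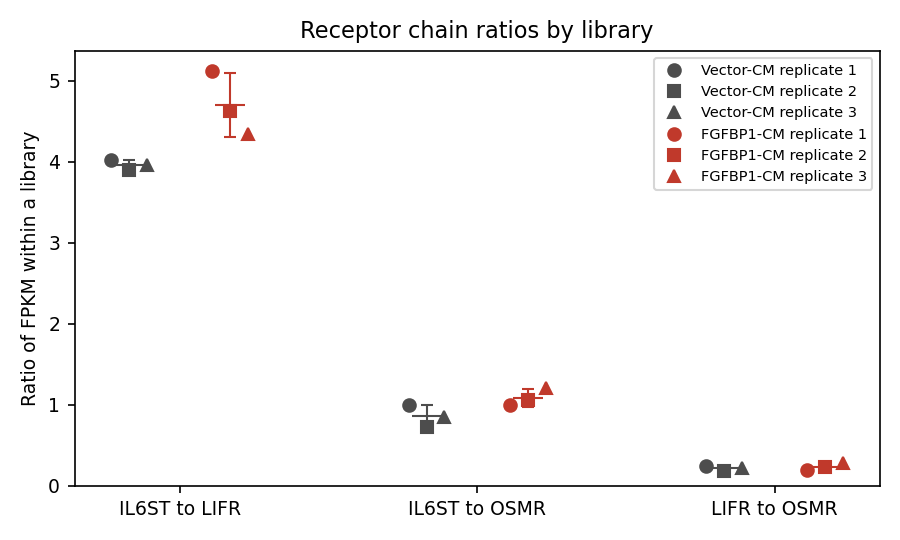
Ratio of FPKM between receptor chains within each library (vertical axis), for IL6ST to LIFR, IL6ST to OSMR and LIFR to OSMR. Points are libraries, bars are the group mean ± SD (n = 3). The IL6ST to LIFR ratio is 3.90 to 4.02 in Vector-CM and 4.34 to 5.12 in FGFBP1-CM, whereas the other ratios overlap between groups.

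Across all tested genes the log2 fold change ran with GC content (Spearman's rho of -0.206 over genes, which are not independent). IL6ST and LIFR are both AT-rich, with 36.6% and 36.2% GC in their longest transcripts, against 45.2% for OSMR. After correction for GC content and length the log2 fold change was 0.25 for IL6ST (adjusted p = 0.0804, edgeR), 0.01 for LIFR and -0.03 for OSMR. Since IL6ST and LIFR have similar GC content and length, this correction moved both alike and is no check of the ratio between them. The specific chains for the other ligands were scarce. IL6R was at 1.21 FPKM and IL11RA at 0.459 FPKM (means of 6 libraries), with log2 fold changes of -0.06 and 0.16 (adjusted p = 0.823 and 0.756, edgeR). Of the 8 receptor genes listed, 7 were tested and 0 passed, 4 with estimates above 0 and 3 below, with a median of 0.01. IL27RA, the IL-27 receptor chain, had the other large estimate, -0.35 (adjusted p = 0.192, edgeR).

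Of the 11 ligand genes of the family, 6 were tested and 0 passed, 3 above 0 (CNTF, CTF1 and CLCF1) and 3 below (IL6, LIF and IL11), with a median of -0.03. The ligand of OSMR, oncostatin M (OSM, 15.978 kb from LIF), and IL27 had 0 counts in all 6 libraries, and IL31 had 1 count in 1 library. CLCF1, a cardiotrophin-like ligand, was at 5.43 FPKM and differed by 0.18 on the log2 scale (edgeR adjusted p = 0.407). Per length it stood between IL11 and LIF in mean level.

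SOCS3 (chr17:78356778-78360077, minus strand), induced by STAT3 and a brake on gp130, was at 39.2, 44.2 and 37.1 CPM in Vector-CM. In FGFBP1-CM it was at 32.0, 37.9 and 38.3 CPM. The groups overlapped, with FGFBP1-CM replicate 1 the lowest. The log2 fold change was -0.16 (SE 0.0917, interval -0.35 to 0.04, edgeR adjusted p = 0.339). Leaving out that library gave -0.07. In the list of SOCS proteins and other JAK-STAT inhibitors, 15 of 16 genes were tested and 0 passed, with 4 above 0, 11 below and a median of -0.06. The most abundant per length were the phosphatase PTPN1 (49.2 FPKM, log2 fold change -0.10) and the adaptor SH2B3 (48.1 FPKM, -0.06).

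Of 15 genes for kinases, transcription factors and adaptors of JAK-STAT signalling, not all of them particular to gp130, 13 were tested and 0 passed. Of their estimates 6 were above 0 and 7 below, with a median of -0.04. DESeq2 called 1 of them (lower), and edgeR without a filter on low counts 2 (1 higher, 1 lower). Over all genes those fits called 5.33% and 3.65%. STAT3, the main transducer of gp130, was at 207, 210.0 and 214 CPM in Vector-CM and at 160.5, 184 and 188 CPM in FGFBP1-CM. The groups did not overlap, and STAT3 differed by -0.25 on the log2 scale (SE 0.0696, edgeR adjusted p = 0.0887). Of the 13 tested genes, 3 had groups without overlap and lower in FGFBP1-CM, and 2 had them higher. Among all tested genes this share was 13.0% in each direction. PTPN11, the phosphatase SHP2 that links gp130 to the RAS pathway, was at 68.0 FPKM and differed by 0.15 on the log2 scale (edgeR adjusted p = 0.218). Its groups did not overlap either, with FGFBP1-CM higher. The scarce STAT5A had a log2 fold change of -0.32 (edgeR adjusted p = 0.553).

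Among 20 STAT3 target genes 18 were tested and 1 passed, TIMP1, an inhibitor of matrix metalloproteinases. It was at 321, 353 and 331 CPM in Vector-CM and at 253, 259 and 263 CPM in FGFBP1-CM. TIMP1 fell by 0.37 on the log2 scale (SE 0.0624, edgeR adjusted p = 0.0465). It is a gene of matrix turnover with other known regulators, and it was known from earlier results of these data to be lower. The list had 0 calls without any 1 of the Vector-CM libraries, with library size only, with a minimum mean of 1 CPM and in limma. It had 2 calls (both lower) in DESeq2, where 5.33% of all genes with an adjusted p were called. Without FGFBP1-CM replicate 2 or 3 it also had 2 (both lower), where 911 of 16926 and 344 of 16943 genes were called. Unfiltered counts gave 5 (1 higher, 4 lower), where 3.65% of all genes were called. The 18 estimates were split into 8 above 0 and 10 below, with a median of -0.04. The kinase PIM1 had -0.45 (adjusted p = 0.0889) and the AP-1 subunit FOS 0.56 (adjusted p = 0.110, edgeR), while the abundant HIF1A had -0.09.

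**Figure D4:**
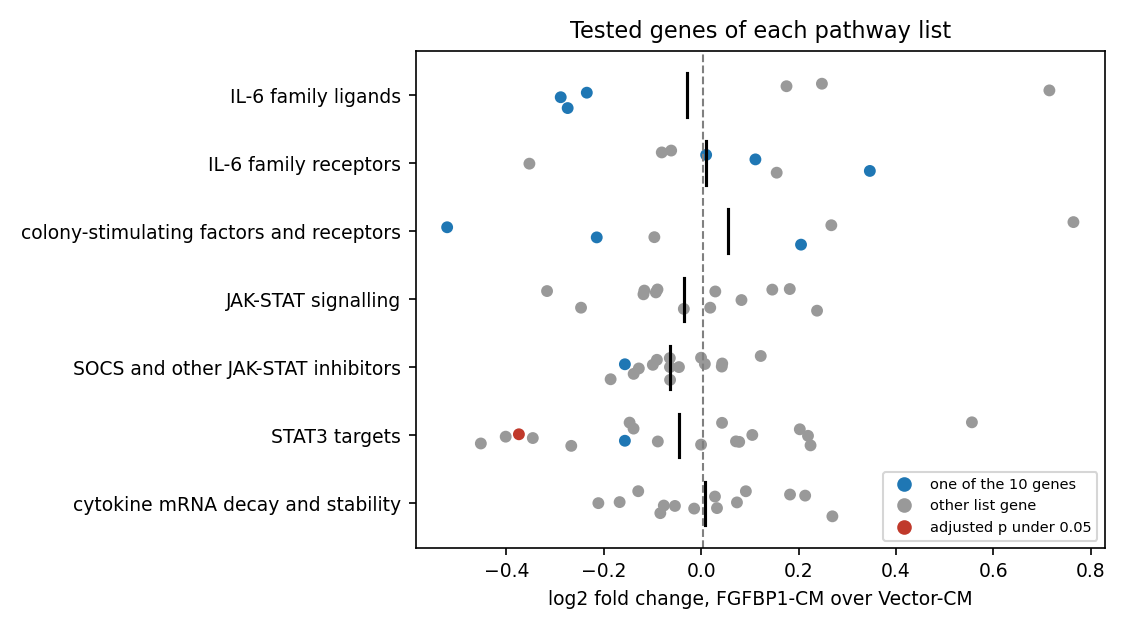
log2 fold change in FGFBP1-CM over Vector-CM (horizontal axis) of each tested gene in the 7 pathway lists, with black bars for list medians and a dashed line for the median of all tested genes. Blue points are members of the set of 10 genes, grey points other genes, and the red point TIMP1, the 1 gene with an adjusted p under 0.05. All list medians lie between -0.06 and 0.05.

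Of the colony-stimulating factors, CSF1 (chr1:109910242-109930992, plus strand), the main growth factor of macrophages, had the narrowest interval. It was at 108, 108 and 104 CPM in Vector-CM and at 83.4, 99.2 and 93.6 CPM in FGFBP1-CM. Each FGFBP1-CM library lay below the Vector-CM libraries, with replicate 1 the lowest. CSF1 had a log2 fold change of -0.21 (SE 0.0718, interval -0.37 to -0.06), with an unadjusted p of 0.0103 and an adjusted p of 0.121 (edgeR). Leaving that library out gave -0.15 (edgeR adjusted p = 0.297).

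CSF2 (chr5:132073790-132076170, plus strand), which encodes GM-CSF, was at 7.77, 9.20 and 7.74 CPM in Vector-CM and at 11.9, 7.86 and 8.46 CPM in FGFBP1-CM. FGFBP1-CM replicate 1 was the highest library, with 226 counts against 115 to 139 in the others, and the remaining FGFBP1-CM libraries lay within the Vector-CM range. The log2 fold change was 0.21 (SE 0.161, interval -0.14 to 0.55, edgeR adjusted p = 0.484). When that library was left out, the value was -0.01 (edgeR adjusted p = 0.991), so the estimate above 0 rested on that library. The ratio of CSF2 to CSF1 reads showed the same library, 0.143 against 0.0722 to 0.0904 in the others (p = 0.2 between groups, exact permutation test).

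CSF3 (chr17:40015361-40017813, plus strand), which encodes G-CSF, rested on 13 to 42 counts per library. It was at 2.35, 2.32 and 0.874 CPM in Vector-CM and at 1.11, 1.63 and 1.17 CPM in FGFBP1-CM. Vector-CM replicate 3 was the lowest library of all, so the groups overlapped. CSF3 differed by -0.52 on the log2 scale (SE 0.337, interval -1.25 to 0.20, edgeR adjusted p = 0.388), and a 2-fold lower level was within the interval at this depth. It was -0.85 without Vector-CM replicate 3 (edgeR adjusted p = 0.255, unadjusted p = 0.00921) and -0.29 without Vector-CM replicate 1 (adjusted p = 0.751).

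Of 10 colony-stimulating factor and receptor genes 6 were tested and 0 passed, with 3 above 0, 3 below and a median of 0.05. The receptors named next had lower mean levels than any of CSF1, CSF2 and CSF3. CSF1R was at 0.186, CSF2RA at 0.199 and CSF2RB at 0.292 FPKM. CSF3R had at most 4 counts in a library, and IL34, the other ligand of CSF1R, and IL3, which lies 10.586 kb from CSF2, had at most 2 and 1.

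Set beside the pentamer densities of the 3′ UTR, the estimates were 0.21 for CSF2, -0.29 for IL6, -0.52 for CSF3 and -0.27 for IL11, the 4 densest genes in this order. None of them passed the test, and CSF2 was at -0.01 without FGFBP1-CM replicate 1. No relation between sequence and change was tested. Of 14 genes for proteins that bind such elements or act in cytokine message decay, all were tested and 0 passed, with 7 estimates on each side of 0 and a median of 0.01. ZFP36L1, a decay factor, was the most abundant at 67.5 FPKM (log2 fold change -0.13), followed by HNRNPD at 36.1 FPKM (-0.01). ARID5A, which stabilizes IL6 message, had 0.27 (adjusted p = 0.196) and the deadenylase PARN 0.21 (adjusted p = 0.180, edgeR).

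Exons of IL6, LIF, IL6ST, LIFR and OSMR overlap a gene on the opposite strand in GENCODE 29. The strand setting of the counting is not given in the sources used here, so reads of overlapping genes could be shared or left out. The shared exon length was 797 bases for IL6ST and AC008914.1, which had 0 counts, and 629 for LIFR and LIFR-AS1, which had 11 to 31 counts per library. OSMR shares 229 bases with RICTOR, a gene of 2994 to 5757 counts per library. The antisense genes at IL6 and LIF had at most 8 and 5 counts. IL6STP1, a pseudogene copy of IL6ST, had at most 2 counts, against 5432 to 10725 for IL6ST. IL11, SOCS3, CSF1, CSF2 and CSF3 had no such overlap.

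Across the 16 alternative fits, 9 of the 10 genes were past the threshold in none, and IL6ST in 2. The log2 fold change of IL6ST ranged from 0.24 to 0.46 and its adjusted p from 4.63e-05 to 0.256. Of the 4 genes above 0, LIFR (0.00 to 0.21) and IL6ST stayed above it in every fit, whereas OSMR and CSF2 did not. All 6 genes below 0 stayed below it. CSF1 ranged from -0.27 to -0.15, IL11 from -0.37 to -0.14, LIF from -0.29 to -0.15, IL6 from -0.45 to -0.10, SOCS3 from -0.21 to -0.07 and CSF3 from -0.85 to -0.18.

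**Figure D5:**
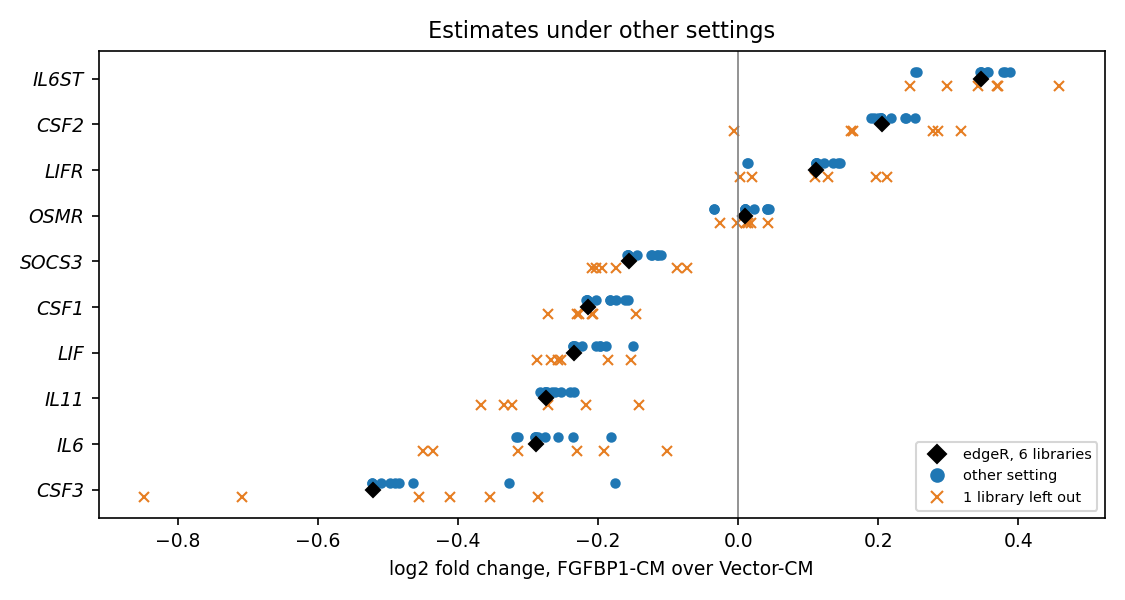
log2 fold change of each gene (horizontal axis) in edgeR with all 6 libraries (black diamonds), in the fits with another setting (blue circles) and in those with 1 library left out (orange crosses). CSF2 drops to -0.01 in 1 fit and OSMR sits at 0, while IL6ST stays between 0.24 and 0.46.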

How the data were processed

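RNA of LX-2 cells was sequenced in 6 libraries, 3 per group. The authors aligned reads with HISAT2 2.0.5 and counted them per gene with featureCounts 1.5.0-p3. Poly(A) selection and depletion of ribosomal RNA are both described. The processing notes name the build hg18, while the gene identifiers were matched here to GENCODE 29 (GRCh38). The annotation release is not given in the sources used here. The authors deposited raw counts and FPKM, computed from the count and the gene length. Columns of the authors' own comparison (fold changes and p-values) were not used.

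Only the 60605 of 60780 rows with an Ensembl identifier were analysed. Genes were kept by filterByExpr, scaled by TMM and tested with edgeR 4.0.16 (R 4.3.3) without a block. The 95% intervals used the t distribution on the total degrees of freedom of the fit. CPM are counts scaled by the TMM library size. Results were recomputed with RLE scaling, with library size only, unfiltered, with a mean of at least 1 CPM, DESeq2 1.42.0, limma 3.58.1 on log2(FPKM + 1) and log2(FPKM + 0.1), the replicate block, a loess correction for GC content and length (98.9% of genes had both) with and without the block, and each library left out. Some of the fits were also run on simulated counts, with an outcome that is not reported here. No single simulated library was set apart as FGFBP1-CM replicate 1 was, so those runs do not check that case. The limits given for a count of 0 cover counting error only, whereas the 95% intervals include the spread between libraries.

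All 10 genes were named, and from each pathway list every gene past the threshold, the 2 with the highest mean FPKM and the 2 with the largest absolute log2 fold change among those with a mean of at least 1 CPM. A gene that this rule names in the JAK-STAT list is not reported here. IL6R, IL11RA, CNTF, CTF1 and receptors of the colony-stimulating factors were added after their values were seen, as were genes with at most 4 counts. The members and lists were chosen with earlier results of these data known.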

Additional observations from a re-analysis of the deposited data

How the results depend on the processing

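Against 20 genes past the threshold (9 higher, 11 lower), RLE scaling gave 38 (24 higher), DESeq2 gave 610 (331 higher), and a minimum mean of 1 CPM gave 11 (4 higher). GC and length correction gave 144 (68 higher). In limma, log2(FPKM + 1) gave 1 gene, with 3062 at an unadjusted p under 0.05, and log2(FPKM + 0.1) gave 1, with 3096. Unfiltered counts gave 1382 (834 higher), there with an infinite prior df in place of 9.28. The cause of these changes was not tested. Leaving out 1 library gave 4 to 911 genes: 6, 4 and 5 without Vector-CM replicates 1, 2 and 3, and 79, 911 and 344 without FGFBP1-CM replicates 1, 2 and 3.

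Of the 10 genes, 1 passed under DESeq2 and 1 without a filter, IL6ST in both cases. OSMR changed sign with GC and length correction, to -0.0349, or -0.0352 where the replicate block was added. Across the fits that each lacked 1 library OSMR ranged from -0.0263 (FGFBP1-CM replicate 1 left out) to 0.0424 (FGFBP1-CM replicate 3), and CSF2 from -0.00643 (FGFBP1-CM replicate 1) to 0.318 (FGFBP1-CM replicate 2). OSMR also was at -0.00142 when Vector-CM replicate 1 was left out. Of 159 values over the 10 genes and 16 alternatives, 152 kept direction and side of the threshold, 2 passed it and 5 changed sign. DESeq2 gave no adjusted p for CSF3, which is left out there. Library size only put the median of all genes at 0.0377 and changed no sign among the 10 genes.

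The deviations of same-numbered libraries correlated by -0.116, -0.0161 and 0.145 over 14937 genes. These values gave no sign of pairing by replicate number. With 3 libraries per group they cannot exclude it, and the labels do not state it. With the replicate block 121 genes passed, and 163 when GC and length were corrected too. IL6ST then had an adjusted p of 0.0615 and 0.0551 (edgeR), and no call among the 10 genes changed.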

Other observations

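Outside the genes fixed for description, other STAT3 targets gave values that were singled out after they were seen. BCL3, a nuclear cofactor of NF-kB, was at 24.0, 22.2 and 19.2 CPM in Vector-CM and at 14.5, 17.9 and 17.4 CPM in FGFBP1-CM, and differed by -0.40 on the log2 scale (edgeR adjusted p = 0.087). JUNB, an AP-1 subunit, was at 46.2, 48.1 and 42.3 CPM and at 29.99, 41.2 and 36.5 CPM (-0.35, adjusted p = 0.0967, edgeR). The groups of both genes did not overlap. MYC (0.22, adjusted p = 0.175) and CEBPB (0.22, adjusted p = 0.157, edgeR) had estimates on the other side of 0. The groups of MYC did not overlap either, whereas those of CEBPB did. Of the 18 tested STAT3 targets, 5 had groups without overlap and lower in FGFBP1-CM, and 2 had them higher. Among all tested genes the share was 13.0% in each direction. CNTF, a scarce ligand of LIFR and IL6ST at 0.421 FPKM, had 0.72 (adjusted p = 0.207, edgeR), and CSF2RA had 0.76 (adjusted p = 0.182, edgeR) at 0.199 FPKM. None of these passed the threshold.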
